A study of Mus musculus with 4 samples.

Results

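The genes examined encode the enzymes that write and remove methyl groups on DNA and on lysine 27 of histone H3, namely Tet1, Tet2, Tet3, Dnmt1, Dnmt3a, Dnmt3b, Kdm6a, Kdm6b and Ezh2. Accessible regions were assigned to these 9 genes by the gene name that the deposited peak lists gave to the highest peak of each region, so the members were chosen by measured peak heights only in so far as the highest peak decided the name. In all, 72 of 60710 regions carried one of the 9 names. The set of genes was also selected with earlier results of these data known, among them the call at the region 214243 bp upstream of Tet2, so that call is described here and supports nothing further.

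ATAC-seq, which maps open chromatin by the insertion of adapters with the Tn5 transposase, was performed on bone marrow-derived macrophages (BMDMs) of wild-type C57BL/6 mice aged 8 to 12 weeks. The cells had been differentiated for 6 days with L929 supernatant, a source of the macrophage growth factor MCSF. The control group (n = 2 libraries) was left untreated and the IL-4 group (n = 2 libraries) received IL-4 at 20 ng/ml for 1 h. The replicates are described as biological replicates, but whether they came from separate animals is not stated, so all p-values measure the spread between these 4 libraries. With 2 libraries against 2 an exact permutation test over libraries cannot give a p below 0.3333, and the tests here therefore come from the limma fit across all regions.

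The deposited score of a peak was read as −log10 of its q-value and is called peak height. It states how surely a peak was told from the local background of that library, which makes it rise with depth, unknown here, and it is not a measure of how open a site is in each cell. In a bulk population a larger share of cells with an open site and a wider opening per cell cannot be told apart. The libraries held 39462 to 45250 peaks with median heights of 6.41 to 8.04, and IL-4 replicate 2 was the lowest in both. Of 10 macrophage markers, 6 to 7 had a peak within 1 kb of the start site in each library (summed heights 63.73 to 92.03), whereas Spi1, Csf1r and Adgre1 had none. T cell, B cell and erythroid markers had no such peak in any library, S100a8 alone of 5 neutrophil markers had one in every library, and Pdgfra alone of 3 fibroblast markers had one, in control replicate 1 only.

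DNMT1 copies cytosine methylation onto the new strand at replication, while DNMT3A and DNMT3B place it anew. TET1, TET2 and TET3 oxidise 5-methylcytosine, the first step of active demethylation, and TET2 is the family member best known from myeloid cells, where its loss favours clonal expansion and inflammatory gene expression. EZH2 is the catalytic subunit of Polycomb repressive complex PRC2 and methylates H3K27, and KDM6A (UTX) and KDM6B (JMJD3) remove that mark. Kdm6b is known as a gene induced by inflammatory stimuli and by IL-4 through STAT6 in macrophages, where its product acts on genes of alternative polarization.

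The sequences of 4 regions are shown because each passed the test or was present in 2 libraries of a single group and absent from the other group. Only windows with a match to a searched motif were printed, so a match in each follows from the choice. Each is a window of 300 bases centred on the highest peak, read 5′ to 3′ on the plus strand of GRCm38.p6, the assembly behind mm10. Capitals mark matches, on either strand, to TTCNNNNGAA (the 4-base spacing bound by STAT6), to TGACTCA or TGAGTCA (AP-1) and to GAGGAAGT (PU.1).
Tet2 −214243 bp, higher in IL-4, chr3:133758484-133758783: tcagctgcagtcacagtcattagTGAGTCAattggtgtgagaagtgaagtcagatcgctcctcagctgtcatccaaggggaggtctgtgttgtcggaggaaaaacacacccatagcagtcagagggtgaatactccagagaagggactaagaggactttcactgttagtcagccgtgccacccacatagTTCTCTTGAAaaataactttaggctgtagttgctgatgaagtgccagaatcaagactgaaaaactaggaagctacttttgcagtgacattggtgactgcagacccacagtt
Tet2 −30614 bp, IL-4-only, chr3:133574855-133575154: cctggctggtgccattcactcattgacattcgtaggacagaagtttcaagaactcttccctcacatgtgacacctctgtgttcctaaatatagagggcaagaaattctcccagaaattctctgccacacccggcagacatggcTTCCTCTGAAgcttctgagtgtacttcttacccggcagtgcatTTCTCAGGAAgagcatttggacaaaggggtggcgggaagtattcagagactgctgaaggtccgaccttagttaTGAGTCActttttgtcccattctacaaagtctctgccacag
Kdm6b −15919 bp, IL-4-only, chr11:69429445-69429744: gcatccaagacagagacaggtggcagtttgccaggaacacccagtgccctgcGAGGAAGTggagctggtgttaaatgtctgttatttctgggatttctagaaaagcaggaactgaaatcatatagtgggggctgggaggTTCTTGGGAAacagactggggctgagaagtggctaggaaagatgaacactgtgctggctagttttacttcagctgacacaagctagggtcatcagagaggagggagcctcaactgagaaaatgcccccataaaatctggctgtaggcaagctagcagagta
Kdm6b +2826 bp, control-only, chr11:69410700-69410999: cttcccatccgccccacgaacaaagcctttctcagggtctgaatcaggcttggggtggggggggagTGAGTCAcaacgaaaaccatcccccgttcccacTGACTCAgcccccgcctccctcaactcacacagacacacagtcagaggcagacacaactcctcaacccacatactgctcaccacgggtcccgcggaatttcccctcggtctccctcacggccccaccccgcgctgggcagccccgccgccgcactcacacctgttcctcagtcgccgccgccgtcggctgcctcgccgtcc

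Tet2 had the most regions of the 9 genes by the naming rule. It was assigned 28 regions, followed by Dnmt3a with 16, Kdm6b with 10, Dnmt1 with 5, Kdm6a and Ezh2 with 4 each, Tet1 and Tet3 with 2 each and Dnmt3b with 1. The rule names by the nearest start site, and 21 of the 28 Tet2 regions lay outside the gene span. Counted by position inside the gene, whatever their name, regions numbered 14 in Dnmt3a, 9 in Tet3, 7 each in Tet2 and Kdm6b and 1 to 4 in the others. A peak was present in all 4 libraries at 29 member regions (40.3%, against 41.9% of all 60710 regions) and in a single library at 20 (27.8%, against 29.6%), so members were found about as repeatably as regions at large. Members lay more often away from promoters: 7 regions (9.72%) carried a promoter annotation against 18.8% of all regions, 32 (44.4%) were intronic against 40.2%, 28 (38.9%) were intergenic against 35.8%, and 63.9% lay beyond 10 kb from the start site against 56.7%. The distal shares came from Tet2, with 20 of 28 regions intergenic (71.4%) and 85.7% beyond 10 kb. Of the other 44 member regions, 8 were intergenic (18.2%), 50% lay beyond 10 kb and 5 carried a promoter annotation (11.4%). These shares are descriptions without a test.

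**Figure D1:**
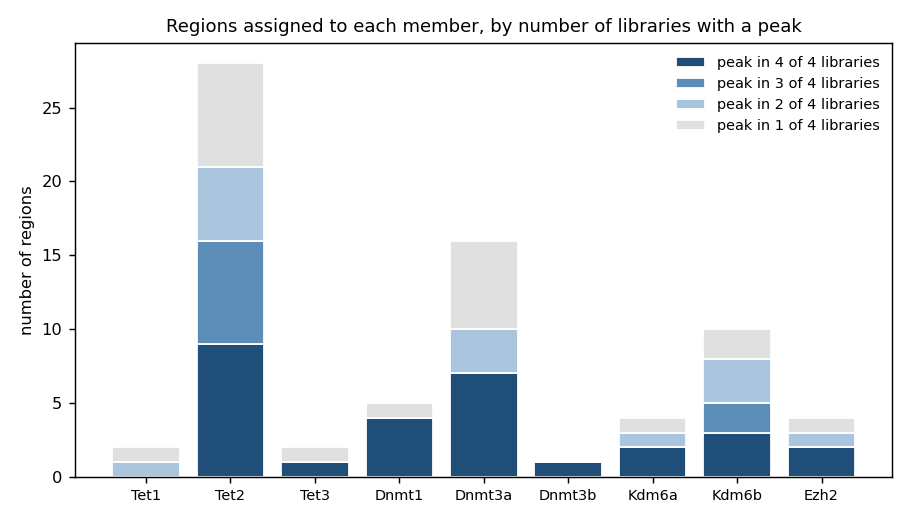
Number of regions assigned to each gene (vertical axis), with the shading of each bar showing in how many of the 4 libraries a peak was present. Tet2 reaches 28 regions, 9 of them in all 4 libraries, whereas Tet1 has 2 regions and none in all 4.

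Peak height changed at 1 of the 29 member regions shared by all libraries. The limma fit with Benjamini-Hochberg adjustment over all 25442 shared regions called 1 member region higher in IL-4 and 0 lower, against 4 regions (0.0157%) higher and 2 regions (0.00786%) lower over the whole table. At an unadjusted p under 0.05 the members again counted 1 higher and 0 lower, and the background was 4.12% higher and 4.15% lower. The changes ran from −0.70 to 1.55 on the log2 scale of normalised height, with 14 regions higher and 15 lower. The median was −0.015 over members and −0.00065 over all regions tested. The member median rested on single libraries: it was 0.18 without control replicate 1, 0.11 without control replicate 2, 0.18 without IL-4 replicate 1 and −0.054 without IL-4 replicate 2. Normalised heights of both IL-4 libraries exceeded both control libraries at 8 of the 29 regions, against 19.2% of all regions, and the opposite held at 3, against 18.6%. The typical standard error of a member change was 0.483 (median). It comes from the limma fit, which draws on the variance of all regions, and the changes at most members were smaller. The members' own residual SD between libraries was 0.365 (median).

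**Figure D2:**
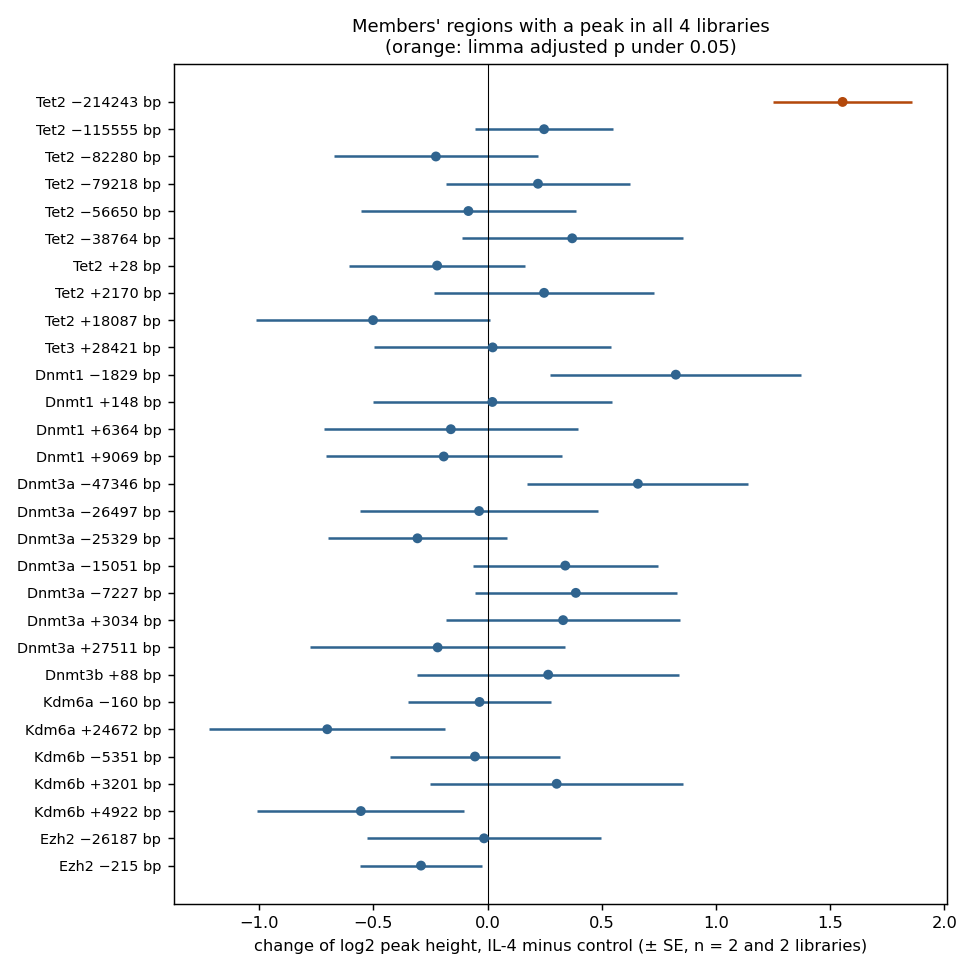
Change of normalised log2 peak height, IL-4 minus control (horizontal axis, points ± SE, n = 2 and 2 libraries), for the 29 member regions with a peak in every library, ordered by gene and distance from the start site. The region 214243 bp upstream of Tet2 stands at 1.55 and the other 28 lie between −0.70 and 0.82.

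**Figure D3:**
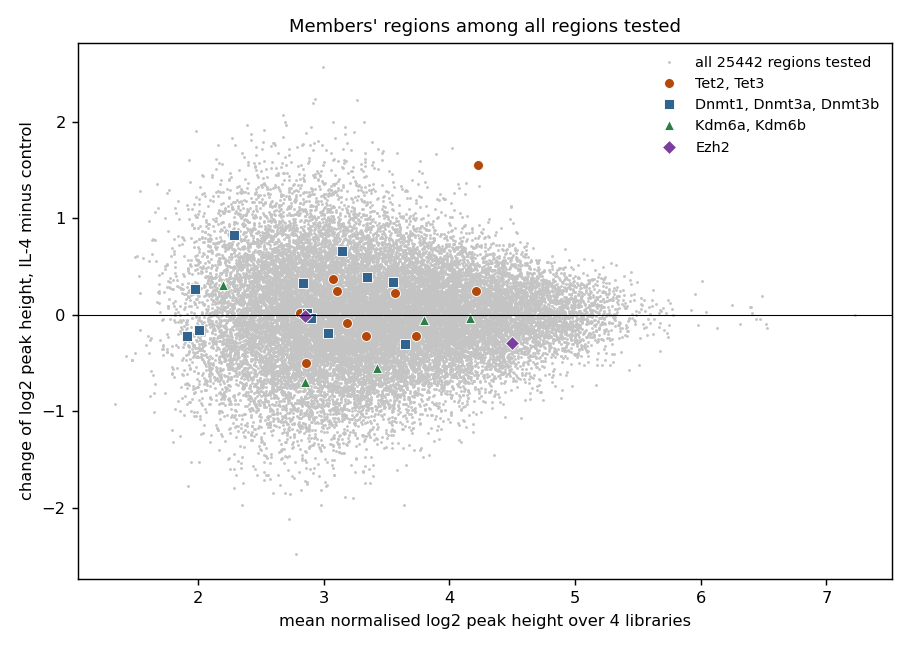
Mean normalised log2 height over the 4 libraries (horizontal axis) against the change with IL-4 (vertical axis, log2) for all 25442 regions tested in grey and the member regions in colour by enzyme family. Most members lie inside the grey cloud, and the Tet2 region at 1.55 lies at its upper edge for that height.

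At Tet2 the distal region 214243 bp upstream of the start site rose with IL-4. Its peak heights were 11.52 and 12.29 under control conditions and 38.98 and 24.24 after IL-4. Both IL-4 values lay above both control values, and the IL-4 libraries differed from each other more than the controls did. On the normalised log2 scale the level was 3.45 ± 0.20 (SD, n = 2) in control and 5.005 ± 0.28 (SD, n = 2) in IL-4, a change of 1.55 (SE 0.303, 95% interval 0.947 to 2.16, limma adjusted p = 0.0300). The region, chr3:133758400-133758827, was intergenic. It lay 213264 bp upstream of the 5′ boundary of the Tet2 gene span and 477317 bp from Cxxc4, the next protein-coding neighbour and itself a gene for a regulator of TET2, so the assignment to Tet2 rests on distance alone. Its window, shown above, held TTCTCTTGAA at position 133758673 and an AP-1 match at 133758507. The call was not kept when either IL-4 library was left out (change 1.34, adjusted p = 0.558, without replicate 1, and 1.71, adjusted p = 0.734, without replicate 2, limma), when the variance trend was dropped (adjusted p = 0.523) or when regions with a peak in at least 2 libraries were fitted together (adjusted p = 0.389).

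Among all shared regions, the 3 whose normalised heights in the 4 libraries were most like those of this Tet2 region belonged to Akap7, Sptbn1 and Casp6, by Euclidean distance on the log2 scale. The Akap7 region, 170530 bp downstream of its start site, had heights of 13.33 and 12.54 in control and 29.88 and 27.76 in IL-4 (distance 0.468). The Sptbn1 region, 5029 bp upstream, had heights of 10.44 and 8.97 in control and 33.53 and 23.70 in IL-4 (distance 0.513). The Casp6 region, in intron 1, had heights of 13.68 and 13.15 in control and 26.50 and 21.27 in IL-4 (distance 0.628). Likeness over 4 libraries is a description of these heights.

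A nearer upstream Tet2 region had a peak in the IL-4 libraries only. At 30614 bp upstream, chr3:133574754-133575197, the heights were 15.15 and 13.40 in the IL-4 libraries, and neither control library had a peak. Such IL-4-only regions numbered 1534 of 60710 (2.53%), and members held 2 of them (2.78% of 72). By the height of its weaker library this Tet2 region ranked 9 of 1534, where the median was 3.73. Keeping only peaks of at least 2 could not alter a region of these heights. Merging peaks within 100 bp left its heights unchanged. Its window held 2 matches to the STAT6 spacing, TTCCTCTGAA at 133574998 and TTCTCAGGAA at 133575041, and an AP-1 match at 133575114. The region was intergenic, 29618 bp upstream of the nearest boundary of the Tet2 gene span. A region without a peak has no height in that library, so this region did not enter the limma fit of shared regions and no p is given for it.

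**Figure D4:**
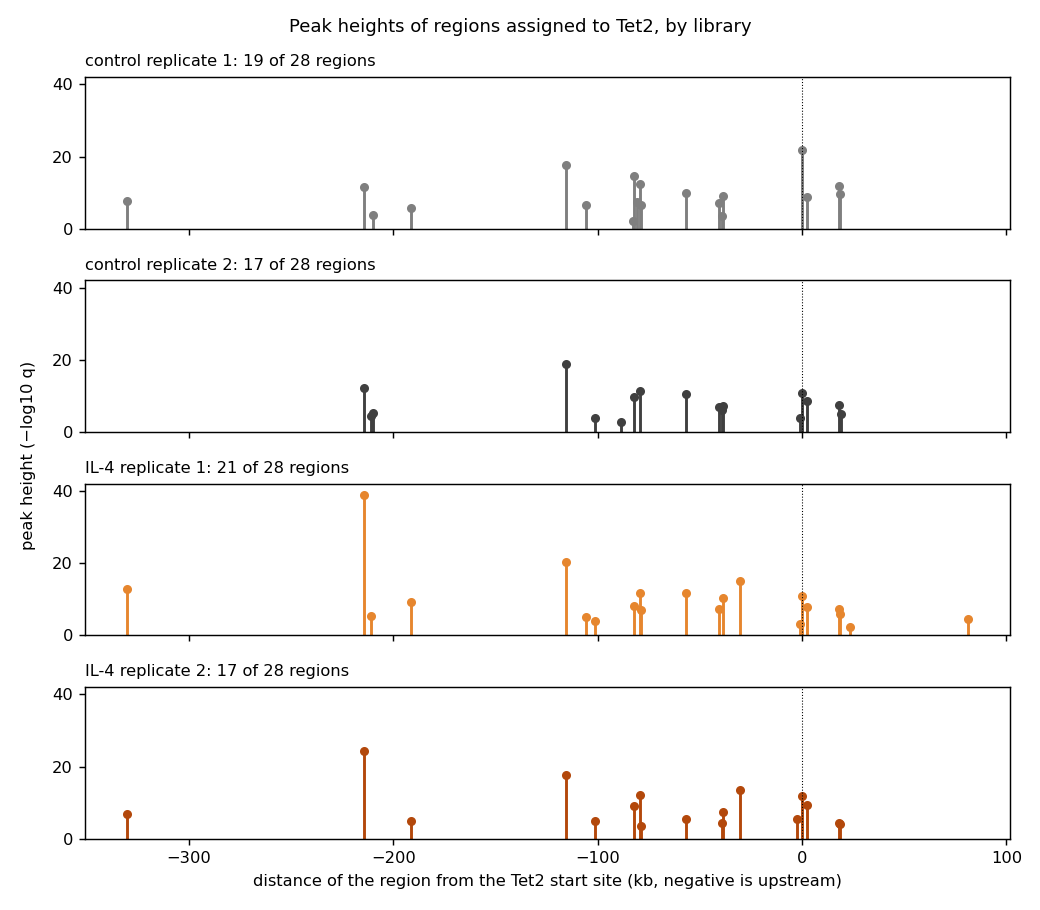
Peak height (−log10 q, vertical axis) of the 28 regions assigned to Tet2 against distance from the start site in kb (horizontal axis), 1 panel per library. The region at −214243 bp reaches 38.98 and 24.24 in the IL-4 panels against 11.52 and 12.29 in the control panels, and the region at −30614 bp is present in the IL-4 panels only.

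The other 8 Tet2 regions that were tested did not pass, and 19 of the 28 were not tested because a library had no peak there. Of these 8 regions, the one with the highest normalised mean in each group lay 115555 bp upstream in the noncoding gene Gm40153. Its heights were 17.64 and 18.95 in control and 20.39 and 17.55 in IL-4. The change there was 0.25 (SE 0.303, 95% interval −0.359 to 0.855), less than its standard error in the fit. Its normalised level was 4.09 ± 0.20 in control and 4.34 ± 0.062 in IL-4 (log2, SD, n = 2 each). Both normalised IL-4 values lay above both control values, as they did at 19.2% of all shared regions. The region at −79218 bp held heights between 11.45 and 12.52 in all 4 libraries. At the start site (+28 bp) the heights were 21.94 and 10.81 in control and 10.88 and 11.92 in IL-4, so 1 control library stood far above the other 3, and the change was −0.22 (SE 0.385, 95% interval −0.993 to 0.552). A small region at −818 bp had heights of 3.81 in control replicate 2 and 3.26 in IL-4 replicate 1 only.

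In intron 1 of Tet2 the region 18087 bp downstream of the start site had heights of 11.88 and 7.37 in control and 7.21 and 4.42 in IL-4. All control values lay above the IL-4 values, but the change of −0.50 did not pass the test (SE 0.513, limma adjusted p = 0.859). This region held TTCTCTTGAA at 133526503, the same 10 letters as the region at −214243 bp, outside the 300-base window around its highest peak. The most distant region, at −330189 bp in the gene Gm26691, had heights of 7.66 and no peak in control and 12.80 and 6.86 in IL-4, and held the match TTCTGGTGAA. Control-only regions made up 4.33% of all regions and 2.78% (2 of 72) of members.

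For Tet1 and Tet3 the peaks were few and their assignment depended on the annotation. Tet1 had 2 small regions, with heights of 5.83 (control replicate 2) and 3.8 (IL-4 replicate 1) in the first and 2.49 (IL-4 replicate 2) in the second, and control replicate 1 had neither. The files place them 6150 and 6473 bp upstream of Tet1, but the RefSeq annotation of GRCm38.p6 starts the same transcript 7309 bp further upstream, which puts them 1160 and 836 bp downstream of the start. Tet3 had 1 shared region, 28421 bp downstream of its start in intron 2, with heights of 9.57 and 5.98 in control and 5.81 and 7.12 in IL-4, a change of 0.022 (SE 0.520). The groups overlapped. The remaining Tet3 region, at +4934 bp, had a height of 7.21 in control replicate 1 alone.

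The start site of Tet3 lay just outside the set, because the highest peak there was named for B230319C09Rik, a noncoding gene that starts on the opposite strand. That region, chr6:83441573-83441873, had heights of 13.70 and 12.84 in control and 6.31 and 6.23 in IL-4, and 1 of its peaks was named Tet3. Both raw IL-4 values were below both raw control values, and the change of normalised log2 height was −0.84. Over all shared regions, both normalised control heights exceeded both IL-4 heights at 18.6%. As the region was found at the edge of the rule after its values were seen, no test is given. Of the 7 regions inside the Tet3 gene span that carried another name, 6 were named for B230319C09Rik and 1 for Bola3. The last, in intron 4 of Tet3, had heights of 22.10 and 16.60 in control and 10.84 and 14.31 in IL-4. The promoter of Tet3 is shown beside that of Tet2 because these were the TET genes with a peak over the start site. Both are RefSeq promoters of GRCm38.p6 on the minus strand, from 250 bases before to 50 bases after the start, and neither held any of the motifs searched.
Tet2 promoter, chr3:133544341-133544640: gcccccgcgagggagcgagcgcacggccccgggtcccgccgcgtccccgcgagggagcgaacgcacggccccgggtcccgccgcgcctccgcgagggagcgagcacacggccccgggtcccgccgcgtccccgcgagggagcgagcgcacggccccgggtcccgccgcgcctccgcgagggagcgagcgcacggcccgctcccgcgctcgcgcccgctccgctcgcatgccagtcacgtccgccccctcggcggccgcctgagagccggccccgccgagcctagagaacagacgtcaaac
Tet3 promoter, chr6:83441629-83441928: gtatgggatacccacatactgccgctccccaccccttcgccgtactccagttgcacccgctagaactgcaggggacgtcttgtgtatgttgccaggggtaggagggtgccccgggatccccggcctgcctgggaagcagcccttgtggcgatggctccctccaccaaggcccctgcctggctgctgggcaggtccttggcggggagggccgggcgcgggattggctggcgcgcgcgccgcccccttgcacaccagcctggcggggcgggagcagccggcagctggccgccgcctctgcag
The Tet2 promoter repeats a GC-rich unit several times and had 57 CpG dinucleotides, an observed to expected ratio of 1.17 that exceeded 99.2% of the 32851 RefSeq promoters. The Tet3 promoter had 22 CpG and a ratio of 0.577, above 62.7% of promoters.

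Of the DNA methyltransferases, no region passed the test. Dnmt1, the maintenance enzyme, had 4 shared regions. At its start site (+148 bp) the heights were 6.74 and 9.32 in control and 5.33 and 8.86 in IL-4, which overlapped, with a change of 0.021 (SE 0.523, 95% interval −1.03 to 1.07). The intergenic region 1829 bp upstream had heights of 3.5 and 4.53 in control and 7.97 and 4.46 in IL-4. Raw heights overlapped and only IL-4 replicate 1 stood out. After normalisation both IL-4 values lay above both control values, and the change of 0.82 did not pass (SE 0.549, limma adjusted p = 0.734). The highest Dnmt1 region, 9069 bp downstream in intron 1, had heights of 15.04 and 5.91 in control and 12.72 and 3.78 in IL-4, so replicate 1 was the higher library in both groups.

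Dnmt3a, a de novo methyltransferase, had 16 regions, of which 9 lay inside the upstream neighbour Dtnb and 7 were present in all libraries. The highest, at −25329 bp at the end of Dtnb, had heights of 13.50 and 16.83 in control and 10.43 and 10.41 in IL-4. Raw control heights were above raw IL-4 heights, but normalised heights overlapped and the change was −0.31 (SE 0.392, 95% interval −1.09 to 0.480). Single libraries moved that value, to −0.57 without control replicate 1, −0.047 without control replicate 2, −0.14 without IL-4 replicate 1 and −0.47 without IL-4 replicate 2. The region at −47346 bp, in intron 16 of Dtnb, had heights of 6.74 and 8.78 in control and 16.08 and 6.43 in IL-4, a change of 0.66 that rested on IL-4 replicate 1 (SE 0.484, limma adjusted p = 0.773). Near the Dnmt3a start (−552 bp) 1 library of each group had a peak, control replicate 1 with 7.48 and IL-4 replicate 2 with 5.12. No region overlapped any of its 3 RefSeq promoters, whose CpG ratios ran from 0.468 to 1.06, the highest exceeding 96.8% of all promoters.

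Inside the Dnmt3a gene 9 regions were named for Gm10485, an antisense noncoding gene, and so lay outside the set. The largest of them, chr12:3855947-3856444 in intron 3, had heights of 22.36 and 18.50 in control and 10.70 and 11.62 in IL-4. At the start of Gm10485, chr12:3862167-3862536, the heights were 9.57 and 13.41 in control and 6.41 and 8.12 in IL-4, and at chr12:3861819-3862028 peaks of 8.34 and 7.81 in control had no counterpart in IL-4. A second control-only region, chr12:3854577-3854838, had heights of 7.98 and 4.25. The opposite was seen at chr12:3855762-3855871, where peaks of 3.37 and 3.32 were present in IL-4 only. In the first 2 of these regions both raw control heights exceeded both IL-4 heights, given here without a test. Their changes of normalised log2 height were −0.66 and −0.40. Both normalised control heights exceeded both IL-4 heights at 18.6% of all shared regions. At chr12:3868157-3868417 the heights were 11.46 and 6.03 in control and 12.89 and 6.95 in IL-4, and the groups overlapped.

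Dnmt3b, the other de novo enzyme, had a single region at its start site (+88 bp), with heights of 7.28 and 2.31 in control and 6.29 and 2.49 in IL-4. Replicate 1 was again the higher library of each group, and the change was 0.27 (SE 0.572, 95% interval −0.881 to 1.41). It exceeded 29.2% and 0.673% of the promoter peaks of control replicates 1 and 2, and 24% and 1.7% of those of IL-4 replicates 1 and 2.

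Among the H3K27 demethylases, Kdm6a had 1 of the tall start-site regions. At −160 bp the heights were 22.99 and 16.40 in control and 14.88 and 18.61 in IL-4, with a change of −0.035 (SE 0.315, 95% interval −0.666 to 0.596). The region 24672 bp downstream, in intron 2, had heights of 8.18 and 12.38 in control and 5.34 and 5.05 in IL-4. Both control values were above both IL-4 values, and the change of −0.70 was the largest decrease among shared member regions, without passing the test (SE 0.517, limma adjusted p = 0.773).

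Kdm6b had its peaks beside the start site of the files rather than on it. The highest region lay at −5351 bp, with heights of 13.27 and 17.64 in control and 12.24 and 13.02 in IL-4 and a change of −0.055 (SE 0.370, 95% interval −0.797 to 0.687). RefSeq starts the same Kdm6b transcript 2519 bp further upstream than the files do, which places this region at −2832 bp from that start. The region, chr11:69418804-69419204, still lies inside the RefSeq gene span of Kdm6b, chr11:69398508-69420367, and also overlaps Gm51903. In the 5′ untranslated exon 2 (+4922 bp) the heights were 12.20 and 16.35 in control and 15.57 and 4.34 in IL-4. The change of −0.55 rested on IL-4 replicate 2 and did not pass (SE 0.453, limma adjusted p = 0.802).

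Intron 1 of Kdm6b held 4 further regions. The control-only region at +2826 bp, chr11:69410725-69410937, had heights of 3.89 and 7.73 in control, ranked 1374 of 2630 control-only regions by its weaker height, and its window held 2 AP-1 matches. Its neighbour at +3201 bp had peaks in all libraries, with 3.87 and 5.27 in control and 4.11 and 5.36 in IL-4. The regions at +1859 bp and +4049 bp had heights of 4.52 to 6.16 and 6.73 to 7.06 in 3 libraries each, and lacked a peak in IL-4 replicate 1 and IL-4 replicate 2, respectively. The IL-4-only region at −15919 bp, chr11:69429524-69429664, lay in intron 76 of Dnah2, the next gene upstream. Its heights of 2.95 and 2.44 were near the lower limit of the files and ranked 1422 of 1534, and its window held TTCTTGGGAA at 69429584.

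Ezh2, the H3K27 methyltransferase, had the tallest start-site region of the set. At −215 bp, in a region that also overlaps the gene F830010H11Rik, the heights were 24.64 and 28.47 in control and 20.89 and 17.60 in IL-4. Both control values were above both IL-4 values, as they were after normalisation (4.65 ± 0.26 against 4.35 ± 0.038 log2, SD, n = 2 each). The change of −0.29 was close in size to its standard error of 0.266 and did not pass the test (95% interval −0.825 to 0.243, limma adjusted p = 0.831). It was −0.11 without control replicate 2 and −0.49 without control replicate 1. A small region at +709 bp had heights of 4.33 in control replicate 1 and 3.24 in IL-4 replicate 2 only. The shared intergenic region at −26187 bp had heights of 9.93 and 6.18 in control and 6.62 and 6.47 in IL-4.

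**Figure D5:**
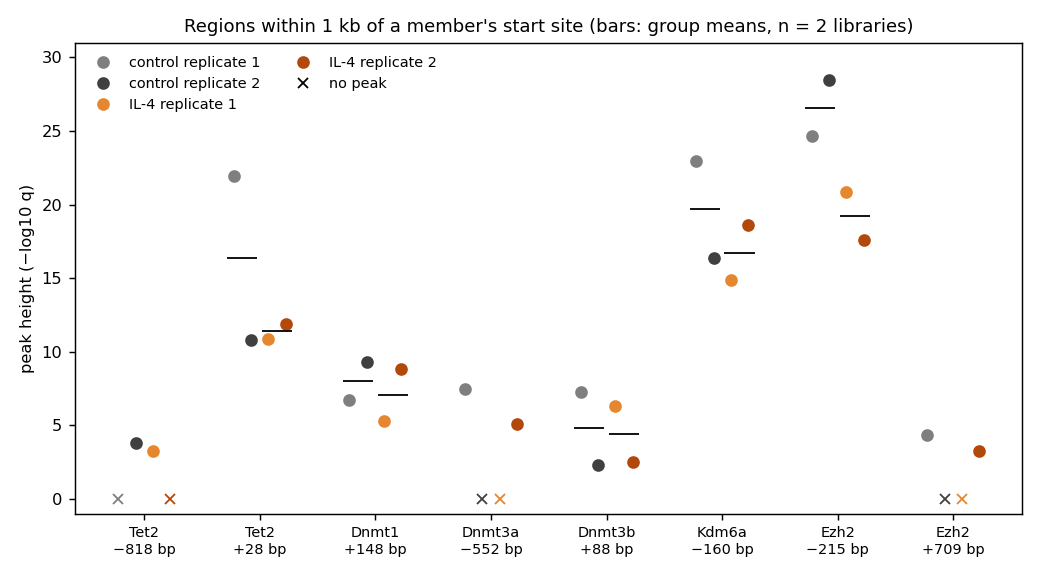
Peak height (−log10 q, vertical axis) in each library at the 8 regions within 1 kb of a member's start site, with group means as bars and a cross where a library had no peak. The groups overlap at Tet2, Dnmt1, Dnmt3b and Kdm6a, and the control points lie above the IL-4 points at Ezh2 −215 bp.

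The shared start-site regions are listed here per kb of region. Height is that of the highest peak and not a sum over length, so the division lowers wide regions. The Ezh2 region spanned 545 bp and the Tet2 region 296 bp, and the order per kb is no ranking of openness. In control libraries the mean height per kb was 55.3 ± 26.6 at Tet2, 48.7 ± 4.97 at Ezh2, 42.5 ± 10.1 at Kdm6a, 14.5 ± 3.30 at Dnmt1 and 14.4 ± 10.6 at Dnmt3b (SD, n = 2 each). Within the first 3 and within the last 2 of this order, neighbours differed by less than the larger of their SDs. The steps on either side of Ezh2 exceeded its own SD. The step from Kdm6a to Dnmt1 was larger than either SD. In IL-4 libraries the values were 38.5 ± 2.48 at Tet2, 36.2 ± 5.70 at Kdm6a, 35.3 ± 4.27 at Ezh2, 13.2 ± 8.09 at Dnmt3b and 12.8 ± 4.51 at Dnmt1 per kb (SD, n = 2 each), with the same split into higher and lower start sites. The division moved Tet2 to the first place: undivided control means were 26.6 at Ezh2, 19.7 at Kdm6a, 16.4 at Tet2, 8.03 at Dnmt1 and 4.80 at Dnmt3b. Tet1, Tet3 and Kdm6b had no region of their own name within 1 kb of the start site of the files.

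The partner genes of these enzymes showed no called region. Of 46 genes in 5 lists, 40 had regions, 177 in all and 74 shared by the 4 libraries. The limma fit called 0 higher and 0 lower, and at an unadjusted p under 0.05 there was 1 higher (1.35%, background 4.12%) and 4 lower (5.41%, background 4.15%). The median log2 change was −0.13 over the 74 regions, against −0.00065 over all regions. By list, the regions called at the unadjusted threshold were 0 higher and 1 lower of 13 for DNA methylation partners, 0 and 1 of 11 for readers, 0 and 0 of 22 for demethylation partners, 1 and 2 of 19 for PRC2 partners and 0 and 0 of 9 for partners of the Kdm6 enzymes. IL-4-only regions numbered 4 of the 177 (2.26%, background 2.53%) and control-only regions 8 (4.52%, background 4.33%), so both shares were near those of all regions.

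The 3 partner regions with the lowest p all had control values above IL-4 values. They were chosen by p, so a gap between the groups follows largely from the choice. Among all 25442 shared regions they ranked 386, 570 and 839 by p. In intron 6 of Phf19, a PRC2 accessory subunit, the heights were 28.40 and 29.09 in control and 13.75 and 15.11 in IL-4 (change −0.82, SE 0.285, limma adjusted p = 0.375). In intron 8 of Dnmt3l, the catalytically inactive cofactor of the de novo methyltransferases, they were 15.74 and 13.53 in control and 5.34 and 4.93 in IL-4 (change −1.29, SE 0.477, limma adjusted p = 0.415). At 34242 bp upstream of Mtf2, another PRC2 accessory subunit, they were 18.16 and 14.07 in control and 9.73 and 3.92 in IL-4 (change −1.13, SE 0.452, limma adjusted p = 0.475).

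The letters of the member regions were counted in windows of 300 bases around the highest peak, on both strands and without regard to overlap between motifs. TTCNNNNGAA occurred in 5 of 72 member windows (6.94%), against 9.05% of all windows, 34.3% of IL-4-only windows and 4.68% of control-only windows. Of these 5 windows, 3 belonged to Tet2, 1 to Kdm6b and 1 to Dnmt1. The Tet2 and Kdm6b windows include the called region and both IL-4-only member regions. TTCNNNGAA, the spacing of other STAT proteins, occurred in 9.72% of member windows against 8.93% of all. AP-1 sites occurred in 21 member windows (29.2% against 19%), GAGGAAGT of PU.1 in 10 (13.9% against 10.4%), TTGCNNAA of C/EBP in 7 (9.72% against 14.5%) and GCGTGGGCG of EGR in 0 (against 0.382%).

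The RefSeq promoters of these genes were richer in GC and CpG than all RefSeq promoters, open or not. Among accessible promoter regions the CpG ratios of members and of all were close. The median GC content of member windows was 50.3% against 49.7% over all, and the 7 promoter windows of members had a median of 69.3% GC and a CpG ratio of 0.815, against 63.7% and 0.794 over all promoter regions. The Tet2 windows had a median GC of 44.8%. Of the RefSeq promoters, 12 entries covered Tet1, Tet2, Tet3, Dnmt1, Dnmt3a, Dnmt3b, Kdm6a and Ezh2, with a median GC of 70.5% and a CpG ratio of 0.701, against 52.7% and 0.384 over all 32851. Several entries belong to Dnmt1 and to Dnmt3a, and Kdm6b has none. The lowest CpG ratio, 0.101, was at a Dnmt1 entry. None of the 12 held any of the 6 motifs. The single motifs occurred in 0.612% to 10.8% of all promoters. At such shares 12 entries are too few for an absence to set these promoters apart.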

How the data were processed

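Peak lists of 4 ATAC-seq libraries were analysed. The authors aligned reads to mm10 and called and annotated peaks in each library separately. The submitters' processing notes name BWA 0.7.10, SAMtools 0.1.19, MACS2 2.0.10 and HOMER 4.2, without roles. The deposited Peak Score was read from its values as −log10 of the q-value (lowest 1.3, although the methods name q of 0.01, a height of 2). The deposited distance to the start site is in bp. The files give no counts, so depth is unknown and no count model or counting interval was possible, and the 95% intervals printed are those of the limma fit.

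Peaks on chromosomes 1 to 19, X and Y that overlapped by 1 bp were merged. Each region took the highest height per library and the gene name of its highest peak. For regions seen in every library, log2 heights were quantile-normalised, and limma 3.58.1 (R 4.3.3) was fitted to them (eBayes with trend, Benjamini-Hochberg, threshold 0.05), after a test on simulated data. The differences planted there were larger than any member change, so that test does not give the power at such changes. Sequences, promoters and gene spans came from RefSeq (GRCm38.p6). All peaks lay within the chromosome lengths of that assembly, and start-site distances of 56 of 72 member regions matched RefSeq within 20 bp (all but those of Tet1, Kdm6a and Kdm6b).

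The members, the 46 partner genes and the marker lists were chosen with earlier results of these data known. The regions given in full are those within 1 kb of a start site, those past the adjusted or unadjusted threshold, those present in 1 group only (1 of them is not reported here), the highest shared region of each gene and the 3 partner regions of lowest p. Other regions described were chosen after their values were seen. Alternatives were median centring, no trend, log2(height + 1), heights of at least 2, regions in at least 2 libraries, merging within 100 bp, a replicate block and leaving out each library.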

Additional observations from a re-analysis of the deposited data

How the results depend on the processing

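Counts of calls depended on the fit. Without the variance trend, and likewise with regions present in at least 2 libraries (an absent peak set to the lowest height of that library), limma called 0 regions higher and 0 lower over all regions and 0 member regions higher, although 1057 higher and 981 lower, or 2317 and 2499, had an unadjusted p under 0.05. Leaving out 1 library each gave 0 to 12 regions higher (12 without control replicate 2, 0 without either IL-4 library), 0 lower in each case and 0 to 1 member regions higher. The lone library of a group is then assumed to vary like the others. Member regions present in IL-4 only numbered 3 to 7 and those in control only 4 to 10 with 1 library left out, against 2 each otherwise. Leaving out a library loosens the rule, so these counts can only stay or rise. Shares over all regions under that looser rule were not computed. Merging within 100 bp left 1 control-only region. Of the 11 alternatives, 7 kept the call of the region 214243 bp upstream of Tet2, with changes of 1.34 to 1.71 and adjusted p of 0.00404 to 0.734 over all 11.

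The replicate block gave 11 regions higher and 3 lower over all regions, and 1 member region higher and 0 lower. The labels do not say whether same-numbered libraries share an animal or day. Deviations of same-numbered libraries correlated at r = 0.0068, and the block is given here only.

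Changes near 0 turned sign at regions that no setting called. Kdm6a −160 bp gave 0.018 with median centring. Leaving out 1 library each gave values of −0.34 to 0.27 at Kdm6a −160 bp, −0.66 to 0.22 at Tet2 +28 bp, −0.53 to 0.58 at Dnmt1 +148 bp, −0.54 to 1.07 at Dnmt3b +88 bp, −0.31 to 0.34 at Tet3 +28421 bp, −0.88 to 0.49 at Dnmt1 +9069 bp and −0.37 to 0.25 at Kdm6b −5351 bp. The cause was not tested. Depth is unknown and peak lists hold no value where no peak was called, so a missing peak does not show closed chromatin.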
